A study of Rattus norvegicus with 2 samples.

Results

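Matrix metalloproteinases (MMPs) and the tissue inhibitors of metalloproteinases (TIMPs) were followed in skeletal muscle of a rat-mouse chimera and of a Sprague-Dawley (SD) rat. The 9 genes are Mmp2, Mmp3, Mmp9, Mmp14, Mmp19, Timp1, Timp2, Timp3 and Timp4. They were taken by name from the single-cell count tables, where all 9 have a mouse row among 25906 mouse rows and 8 have a rat row among 23373 rat rows; no rat row carries the name Timp2. No measured value entered the choice of the rows, although earlier results of these data were known.

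MMPs are zinc-dependent enzymes, made as inactive pro-enzymes, that cut collagens, laminins and other proteins outside the cell. TIMPs bind the active site of these enzymes and block it, and TIMP2 also links pro-MMP2 to membrane-bound MMP14, which starts its activation. In muscle the matrix around fibers, vessels and nerves is made largely by connective-tissue cells, and its turnover accompanies growth, repair and cell migration.

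The study asked which cell types of rat muscle mouse induced pluripotent stem cells (iPSCs) had formed. The chimera came from an SD rat morula injected with gene-edited Dmd mdx; Pax7-nGFP mouse iPSCs, a line that carries the mdx dystrophin mutation corrected by exon skipping and a nuclear GFP reporter of Pax7. The control was an SD rat without injected cells. Each group is 1 library of dissociated skeletal muscle from 1 animal, so the injected cells, the animal and the library cannot be told apart, and there is no replicate check and no test. Neither age nor sex is given in the sources used here. Reads of the chimera were mapped to a combined rat and mouse reference and those of the SD rat to the rat reference alone.

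Unique molecular identifiers (UMIs), each counted as 1 RNA molecule, summed to 118872850 over 13299 barcodes in the chimera and to 70957559 over 10117 barcodes in the SD rat, and 43 barcodes occur in both. After filters and removal of predicted doublets, 8816 SD rat cells remained. The chimera gave 8230 rat cells (at most 20% of UMIs on mouse rows), 1847 mouse cells (at least 80%) and 1653 mixed barcodes, which stayed out of the comparisons. Clusters were named from markers as "like" a cell type, with 3 to 12 raised markers per named cluster. These names were rebuilt here, so a difference from the study's own cell types may come from that. In SD rat and chimera rat cells respectively, fibro-adipogenic progenitor-like (FAP-like) cells numbered 3198 and 2607, tenocyte- or fibroblast-like cells 554 and 585, endothelial cell-like (EC-like) cells 1561 and 724 and pericyte- or mural-like cells 389 and 415. Mouse cells held 124 FAP-like, 40 tenocyte-like, 1085 EC-like and 67 myeloid-like cells, and no class of muscle progenitor-like (MP-like), lymphatic endothelial-like (LyEC-like), pericyte-like or mast-like cells. A mouse cluster of 47 cells scored best for MP, with 10 raised MP markers and Myog among its top genes. The naming rule left it unnamed because its top genes held more markers of another class, so no mouse MP-like level is given.

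Levels are in counts-per-million (CPM), the UMIs of a gene summed over the cells of a class relative to all UMIs on rows of that species, with an exact 95% Poisson interval in brackets. Intervals cover counting error only, not differences between animals. These are 3′ tag counts, so a level is read across cell types and not against another gene.

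Mmp2, gelatinase A, which cuts denatured collagen and basement membrane, had its highest level in FAP-like cells of each population. It stood at 626 [618 to 634] CPM in SD rat, 719.5 [709.7 to 729] in chimera rat and 648 [612 to 686] in mouse FAP-like cells, and 95.8% of SD rat FAP-like cells held at least 1 UMI. Tenocyte-like cells followed with 538, 498 and 378 CPM, and Schwann- or glial-like cells with 148, 191 and 171 CPM. The connective-tissue classes thus led for Mmp2 in both species. It was low in the muscle lineage and in vessels: MP-like cells had 68.3 CPM in SD rat and 110.4 in chimera rat, myocyte-like cells 11.2 and 9.26, and EC-like cells 42.3, 42.1 and, in mouse, 5.03 CPM. Within the SD rat tenocyte-like class, 1 cluster reached 861 CPM and the other 394.

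Mmp14, the membrane-anchored collagenase that activates pro-MMP2, followed the same order at the top. FAP-like cells had 286 [281 to 292] CPM in SD rat, 204 [198 to 209] in chimera rat and 246 [224 to 269.8] in mouse cells, and tenocyte-like cells 225, 124 and 184 CPM. Below them, in SD rat cells, Schwann-like (122 CPM) and LyEC-like cells (93.4 CPM), whose intervals overlap, came next. In mouse cells, where no LyEC-like class was named, myeloid-like cells had 86.6 [66.9 to 110.4] CPM and Schwann-like cells 42.8 [11.7 to 109.5] from 4 UMIs, with overlapping intervals.

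Because MMP14, TIMP2 and pro-MMP2 act as a complex, cells with a UMI of each were counted. All 3 were detected in 103 of 124 mouse FAP-like cells, which is 83.1% (75.3 to 89.2%, exact binomial), and in 26 of 40 mouse tenocyte-like cells (65.0%). All 3 were found in 8 of 1085 mouse EC-like cells (0.737%) and in 0 of 132 mouse B cell-like cells, where 3 cells would be 2.27%. The median depths of these 4 classes were 14585, 14100, 5523 and 5574 UMIs, so the shares are not matched for depth. In rats, where no row is named Timp2 and a row under another identifier was not searched for, Mmp2 and Mmp14 were detected together in 84.4% of SD rat and 76.5% of chimera rat FAP-like cells and in 1.28% and 2.07% of EC-like cells.

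Mmp19, a basement-membrane protease, is known from fibroblasts and macrophages. In rats it was highest in FAP-like cells, at 30.8 [29.1 to 32.7] CPM in SD rat and 15.8 [14.4 to 17.4] in chimera rat, and myeloid-like cells had 8.39 and 4.39 CPM. Mouse FAP-like cells had 30.9 [23.4 to 40.0] CPM, but mouse myeloid-like cells reached 115 [91.7 to 142] CPM from 86 UMIs in 23 of 67 cells. Of these UMIs, 30 lay in 1 cell, and without it the level was 75.96 CPM. Of all 303 mouse Mmp19 UMIs 145 lay in unnamed clusters, 127 of them in 32 cells led by Cd74 and Il1b (289 CPM). The mouse myeloid-like class is 1 cluster with raised neutrophil or monocyte markers such as S100a9, Plac8 and Cd14. The 3 myeloid-like clusters of chimera rat cells scored best for macrophage markers. In 1 of these, of 339 cells, only 3 macrophage markers were raised, and Il1b and Plac8 were among its top genes. The part of this makeup in the myeloid-like values was not tested.

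Mmp3, stromelysin-1, which cuts proteoglycans and activates other pro-MMPs, came from few cells. SD rat FAP-like cells held 180 UMIs in 30 cells (4.96 CPM) and chimera rat FAP-like cells 172 UMIs in 17 cells (5.99 CPM), 73 of them in 1 cell. The mouse FAP-like class held 202 UMIs in 14 of 124 cells (109.5 CPM), 98 of them in 1 cell, and 56.8 CPM remained without that cell. Chimera rat EC-like cells listed 25.98 CPM, but 95 of their 100 UMIs came from 1 cell and the level without it was 1.31 CPM. A FAP-like or EC-like level of Mmp3 is therefore largely that of a few barcodes. Tenocyte-like cells had 9.74 CPM in SD rat and 21.2 in chimera rat, above the FAP-like cells of each. Without the top cell these levels were 8.21 and 14.5 CPM.

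Mmp9, the gelatinase stored in neutrophil granules, was close to 0 outside blood-derived classes: SD rat FAP-like cells had 7 UMIs among 3198 cells. The SD rat myeloid-like class had 11.8 [8.74 to 15.7] CPM. Within it a cluster of 33 cells led by the neutrophil genes S100a9, S100a8 and Retnlg reached 229 CPM. B cell-like cells had 23.1 [8.47 to 50.2] CPM in SD rat, from 6 UMIs, and 9.41 [5.58 to 14.9] in chimera rat. An unnamed chimera rat cluster of 67 cells that also shows S100a8 and S100a9 had 47.9 CPM.

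**Figure D1:**
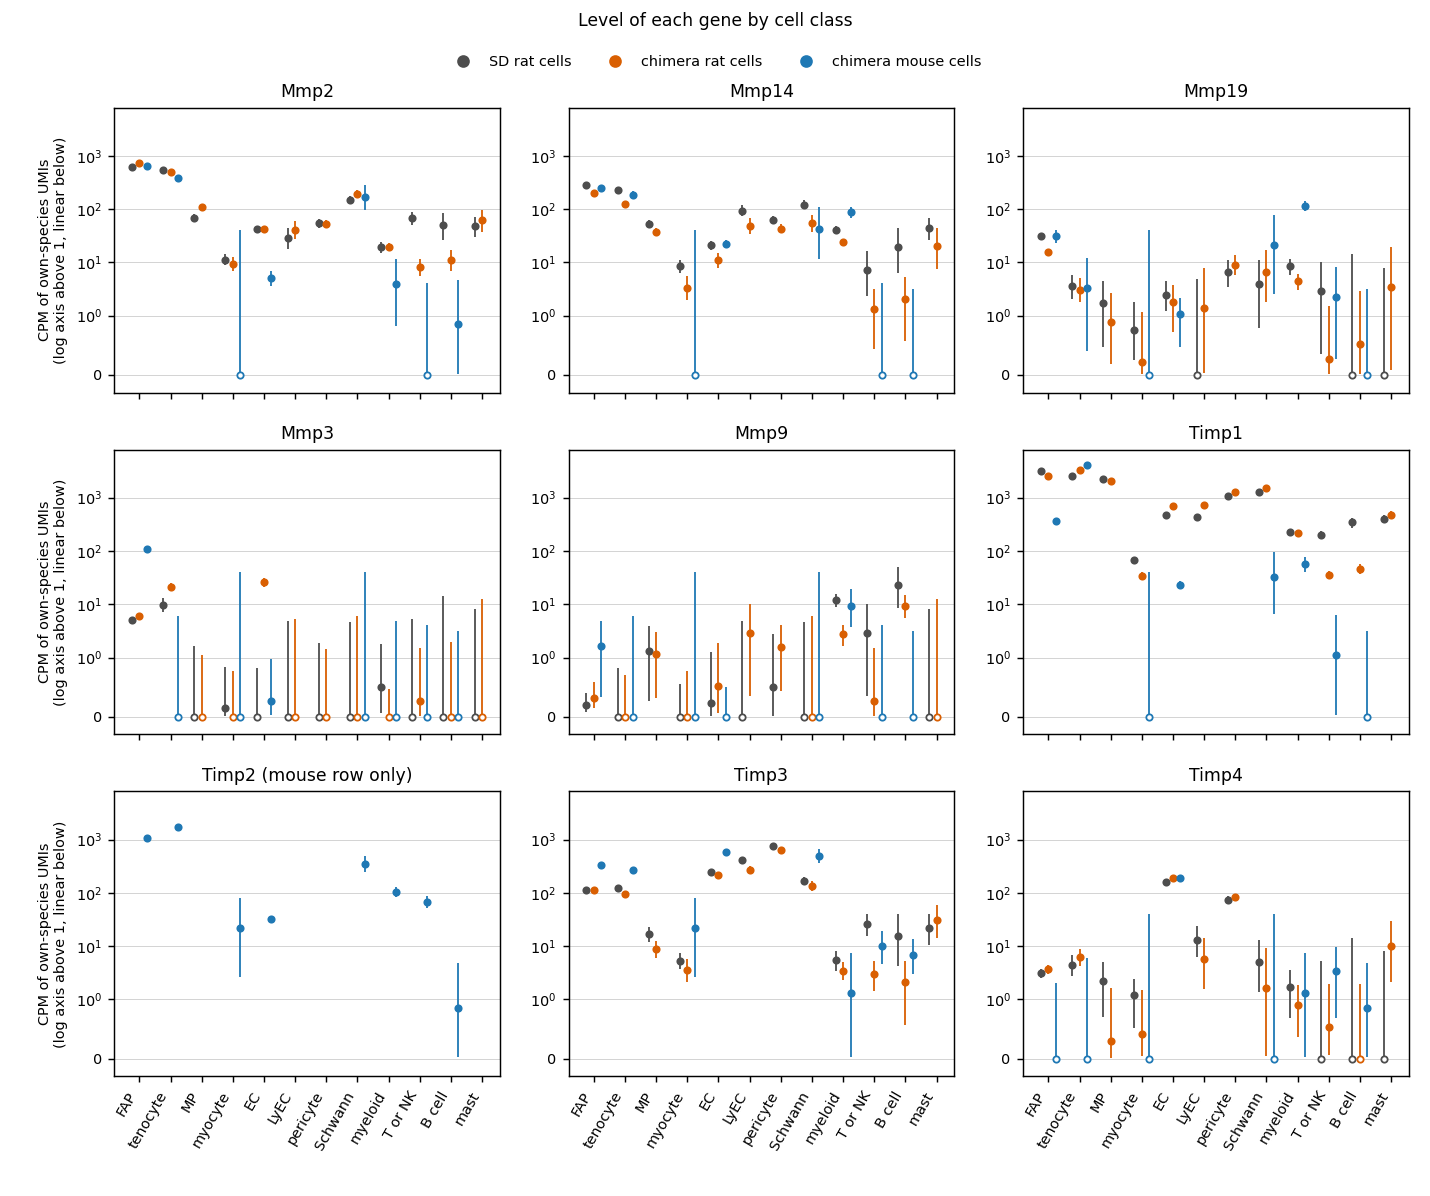
Level of each of the 9 genes in each marker-named class, in CPM on a log axis, for SD rat, chimera rat and chimera mouse cells, with exact 95% Poisson intervals as bars. Mmp2 and Mmp14 are highest in the FAP-like class of each population, while Timp4 is highest in EC-like cells, at 158 CPM in SD rat, 190 in chimera rat and 193 in mouse.

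Of the 9 genes, 5 matched an entry in the RefSeq promoter table, which is on the rat build GRCr8, whereas the count tables were made on mRatBN7.2; no coordinate is carried between the builds. The 250 bases upstream of the transcription start of the 4 inhibitors are shown because the inhibitors did not share 1 leading class. All 4 genes lie on the minus strand, and the windows are Timp1 chrX:3771123-3771372, Timp2 chr10:104089215-104089464, Timp3 chr7:19459559-19459808 and Timp4 chr4:149985205-149985454. They are written 5′ to 3′ and end at the base before the start. Capitals mark 3 searched motifs on either strand: the AP-1 letters TGAGTNA, the GC box GGGCGG and the TATA box TATAAA.
Timp1: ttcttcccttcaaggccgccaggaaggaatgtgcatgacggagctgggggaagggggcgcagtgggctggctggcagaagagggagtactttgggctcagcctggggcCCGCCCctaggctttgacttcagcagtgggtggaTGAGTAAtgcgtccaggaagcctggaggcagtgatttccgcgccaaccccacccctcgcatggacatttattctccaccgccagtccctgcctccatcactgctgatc
Timp2: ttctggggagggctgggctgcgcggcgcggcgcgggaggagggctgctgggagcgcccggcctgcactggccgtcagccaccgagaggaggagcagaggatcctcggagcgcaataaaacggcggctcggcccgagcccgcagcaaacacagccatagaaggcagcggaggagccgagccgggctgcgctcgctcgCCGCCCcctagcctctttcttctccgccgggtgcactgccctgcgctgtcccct
Timp3: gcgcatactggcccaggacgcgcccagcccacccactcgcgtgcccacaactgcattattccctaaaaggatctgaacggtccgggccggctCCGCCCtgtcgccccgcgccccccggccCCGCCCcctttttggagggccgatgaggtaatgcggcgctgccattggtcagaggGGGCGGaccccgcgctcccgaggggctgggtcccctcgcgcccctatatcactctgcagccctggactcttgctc
Timp4: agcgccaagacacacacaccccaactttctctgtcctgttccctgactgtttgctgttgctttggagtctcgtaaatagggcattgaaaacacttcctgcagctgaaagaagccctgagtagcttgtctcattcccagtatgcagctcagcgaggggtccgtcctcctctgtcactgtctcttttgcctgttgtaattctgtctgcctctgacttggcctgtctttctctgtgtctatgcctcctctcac
The Timp1 window holds TGAGTNA 108 bases before the start and a GC box at 142. Timp2 has a GC box at 54 and Timp3 GC boxes at 158, 130 and 75. In the Timp4 window none of the 3 motifs occurs. Among 33469 rat promoter windows of the same length, 11.8% hold the AP-1 letters, 30.5% the GC box and 12.9% the TATA box. The G and C content was 61.2% for Timp1, 72.0% for Timp2, 69.6% for Timp3 and 50.8% for Timp4, against a median of 51.2% over all windows. A match of letters is not a binding site. For Mmp2, Mmp9, Mmp14 and Mmp19 no sequence was used here.

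Timp1, a secreted inhibitor of most MMPs that is also a cytokine-like signal, had UMIs in each of the 12 rat classes. In SD rat cells it was highest in FAP-like cells at 3229 [3210 to 3247] CPM, followed by tenocyte-like (2507 CPM), MP-like (2239), Schwann-like (1270) and pericyte-like cells (1071). In chimera rat cells the tenocyte-like class led at 3346 [3296 to 3396] CPM, ahead of FAP-like (2554 CPM) and MP-like cells (2022). EC-like cells had 476 and 712 CPM and myocyte-like cells 67.5 and 34.5 CPM. The muscle lineage thus spanned a wide range, and within it the cluster led by Myog, a gene of differentiating myoblasts, had 897 CPM in SD rat and 1064 in chimera rat against 2666 and 2503 in the other MP-like cluster.

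Mouse cells showed another distribution of Timp1. Tenocyte-like cells had 4116 [3956 to 4281] CPM, FAP-like cells 362 [335 to 390.1], EC-like cells 23.3 [19.9 to 27.0] and B cell-like cells 0. In the tenocyte-like class 1096 of 2482 UMIs, and in the FAP-like class 298 of 667, came from 1 cell each. The share of cells with a Timp1 UMI is not set by such a cell. After every cell was thinned to 1000 UMIs, with shallower cells left out (2 to 13 FAP-like cells per population), it was 63.7% in SD rat, 58.2% in chimera rat and 13.1% in mouse FAP-like cells. Unthinned, those shares were 92.7%, 93.3% and 47.6%, at median depths of 10930, 10616 and 14585 UMIs. In B cell-like cells, taken as the background class, the thinned share was 11.8%, 3.86% and 0% at median depths of 3539, 4268 and 5574 UMIs, and the FAP-like shares lie above it in all 3 populations.

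Timp2, which both inhibits MMPs and takes part in activating pro-MMP2, could be read only on its mouse row. Mouse tenocyte-like cells had 1710 [1607 to 1817] CPM and FAP-like cells 1062 [1015 to 1110], with a UMI in 97.5% and 97.6% of cells. Schwann-like cells had 353, myeloid-like 105, T or NK cell-like 67.2 and EC-like cells 32.2 CPM. FAP- and tenocyte-like cells were also the leading pair for Mmp2 and Mmp14 in mouse cells, in the opposite order.

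Timp3, the inhibitor that binds to the matrix and also blocks ADAM and ADAMTS proteases, was highest in vessel-wall classes of rats. Pericyte-like cells had 753 [716 to 792] CPM in SD rat and 633 [602 to 665] in chimera rat, LyEC-like cells 411 and 272, and EC-like cells 247 and 218. FAP-like cells had 112 and 111 CPM. In mouse cells, where no pericyte-like class was found, EC-like cells (582 [564 to 599] CPM) and Schwann-like cells (503 [369 to 668] CPM) came first with overlapping intervals, and FAP-like cells had 335 CPM.

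Timp4, the inhibitor known from heart and vessels, was largely an endothelial gene here. EC-like cells had 158 [147 to 170.4] CPM in SD rat, 189.9 [176 to 204] in chimera rat and 193 [183 to 204] in mouse, and pericyte-like cells 73.7 and 85.1 CPM. FAP-like cells had 3.11 and 3.73 CPM in rats and no UMI in 124 mouse cells, where 3 UMIs would be 1.63 CPM. The mouse erythroid-like class listed 65.3 CPM, but 10 of its 13 UMIs lay in 1 cell.

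A gene was counted as standing out in 1 class when its highest class level was at least 2-fold the next, with 1 CPM added to both. This was so for 2 of 8 genes in SD rat cells, Mmp19 (3.39-fold) and Timp4 (2.13-fold), where 22.8% of all genes with enough UMIs did so. In chimera rat cells it held for 3 of 8, Mmp9 (2.71-fold, intervals overlapping), Timp3 (2.32-fold) and Timp4 (2.22-fold), against 21.2% of genes. The mouse count was 5 of 9, Mmp3, Timp1, Mmp9, Mmp19 and Timp4, against 26.1%. Of these, Mmp3, Timp1 and Mmp19 rest in part on single cells, Mmp9 on 7 UMIs against 3 with overlapping intervals, and the class next to EC-like cells for Timp4 is the erythroid-like one with its 13 UMIs. With so few genes nothing is read from these counts. The remaining genes in each population had a neighbouring class within 2-fold, most often the pair of FAP-like and tenocyte-like cells.

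Clusters within a class were also compared, with the 9 genes left out of the clustering. Endothelium held 4 EC-like clusters in SD rat, 2 in chimera rat and 9 in mouse cells, and a cluster led by the venous genes Selp and Plvap was found in each population, with 60 SD rat, 71 chimera rat and 104 mouse cells. It had the highest Timp1 of the EC-like clusters, at 1257, 1327 and 134 CPM, and the highest Timp3, at 431, 323 and 705 CPM. The same cluster had the lowest Timp4, at 22.8, 36.3 and 0.862 CPM, while other EC-like clusters reached 222, 234 and 477 CPM. In the mouse venous-type cluster, Timp2 was at 156 CPM. Timp1 was thus highest where Timp4 was lowest among the EC-like clusters of each population, without a test, since each is 1 library, and with only 2 clusters to order in chimera rat cells.

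**Figure D2:**
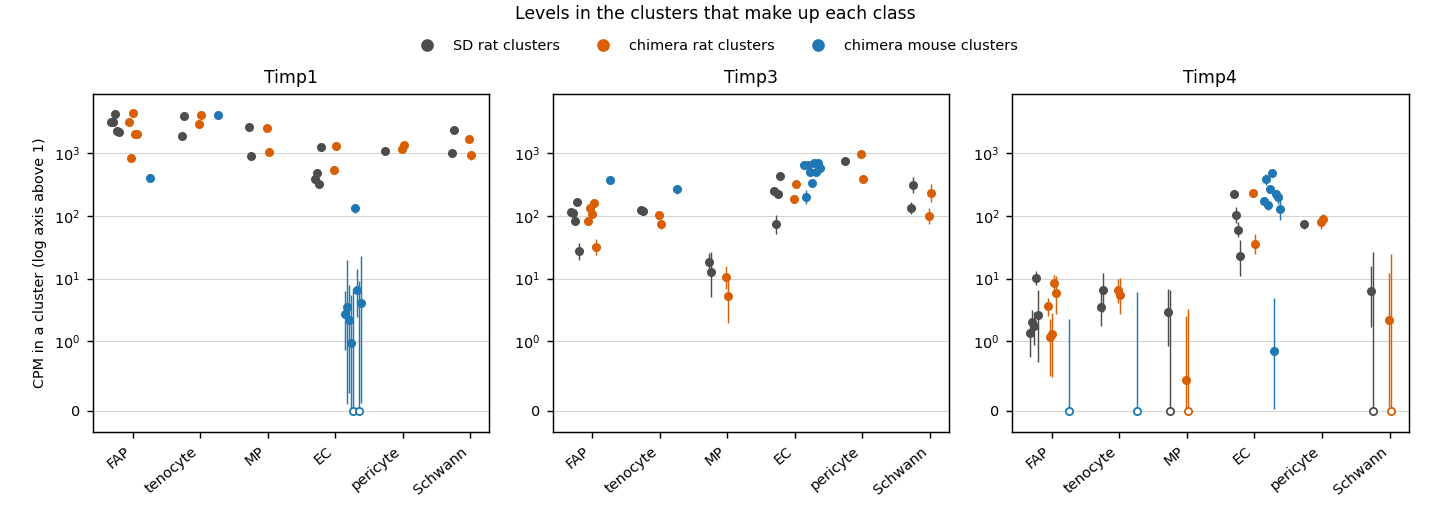
Timp1, Timp3 and Timp4 levels in each cluster of at least 20 cells, in CPM on a log axis, grouped by class and population, with exact 95% Poisson intervals. In EC-like cells the venous-type cluster has the highest Timp1 (1257, 1327 and 134 CPM) and the lowest Timp4 (22.8, 36.3 and 0.862 CPM).

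Among FAP-like clusters of chimera rat cells, Timp1 ran from 844 CPM in 693 cells led by Smoc2 to 4478 CPM in 406 cells led by Smoc2 and Tnfaip6, a 5.30-fold span. The SD rat FAP-like clusters ranged from 2182 to 4303 CPM. Timp3 was lowest in the FAP-like cluster led by Apod, at 27.2 CPM in SD rat and 31.9 in chimera rat. Among chimera rat pericyte-like cells, the cluster led by Rgs5 and Vtn, pericyte genes, had 988 CPM of Timp3 and the cluster led by Acta2 and Myh11, smooth muscle genes, had 390.

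Genes with the most similar pattern over 12 classes were sought among 8325 genes by the correlation of log2 CPM across classes, which share libraries and depth. The closest gene was chosen in SD rat cells, and r in chimera rat cells is given for the same gene. For Mmp2 it was Rcn3, with r = 0.971 in SD rat and 0.979 in chimera rat over 12 classes. Timp3 was closest to Kalrn (0.95 and 0.976) and Timp4 to Tmem88 (0.981 and 0.926). Closest to Mmp14 was Praf2 (0.958 and 0.880), to Mmp19 Aox1 (0.891 and 0.746) and to Timp1 Pcbp3 (0.949 and 0.936). In chimera rat cells the choice was not the closest of the 3 genes kept for Mmp14, where Prrc1 had 0.9496, for Mmp19, where Astn2 had 0.814, and for Timp4, where Cmtm8 had 0.963.

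Chimera rat cells were then set against SD rat cells of the same class, which asks whether the host's own cells differ between the libraries. Of 96 pairs of gene and class, 57 had at least 20 UMIs over both groups. With 1 CPM added, 2 of them were past 2-fold higher in chimera rat cells and 10 past 2-fold lower, where 3.34% and 5.42% of the values of all genes over these classes were. In FAP-like cells, the class with the most UMIs, 0 of 7 genes passed 2-fold, where 2.29% of all genes did. The log2 differences there (chimera rat minus SD rat) were 0.20 for Mmp2, 0.23 for Mmp3 and 0.20 for Timp4, -0.02 for Timp3, -0.34 for Timp1, -0.49 for Mmp14 and -0.92 for Mmp19. Among the genes compared in these cells, 6.54% lay below Mmp14 and 1.65% below Mmp19.

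Timp1 went both ways by class. Its log2 difference was 0.42 in tenocyte-like, 0.58 in EC-like, 0.70 in LyEC-like and 0.27 in pericyte-like cells, -0.15 in MP-like and -0.95 in myocyte-like cells. None of these passed 2-fold. Mmp2 was 0.69 higher on the log2 scale in MP-like cells, from 156 UMIs in SD rat and 372 in chimera rat.

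**Figure D3:**
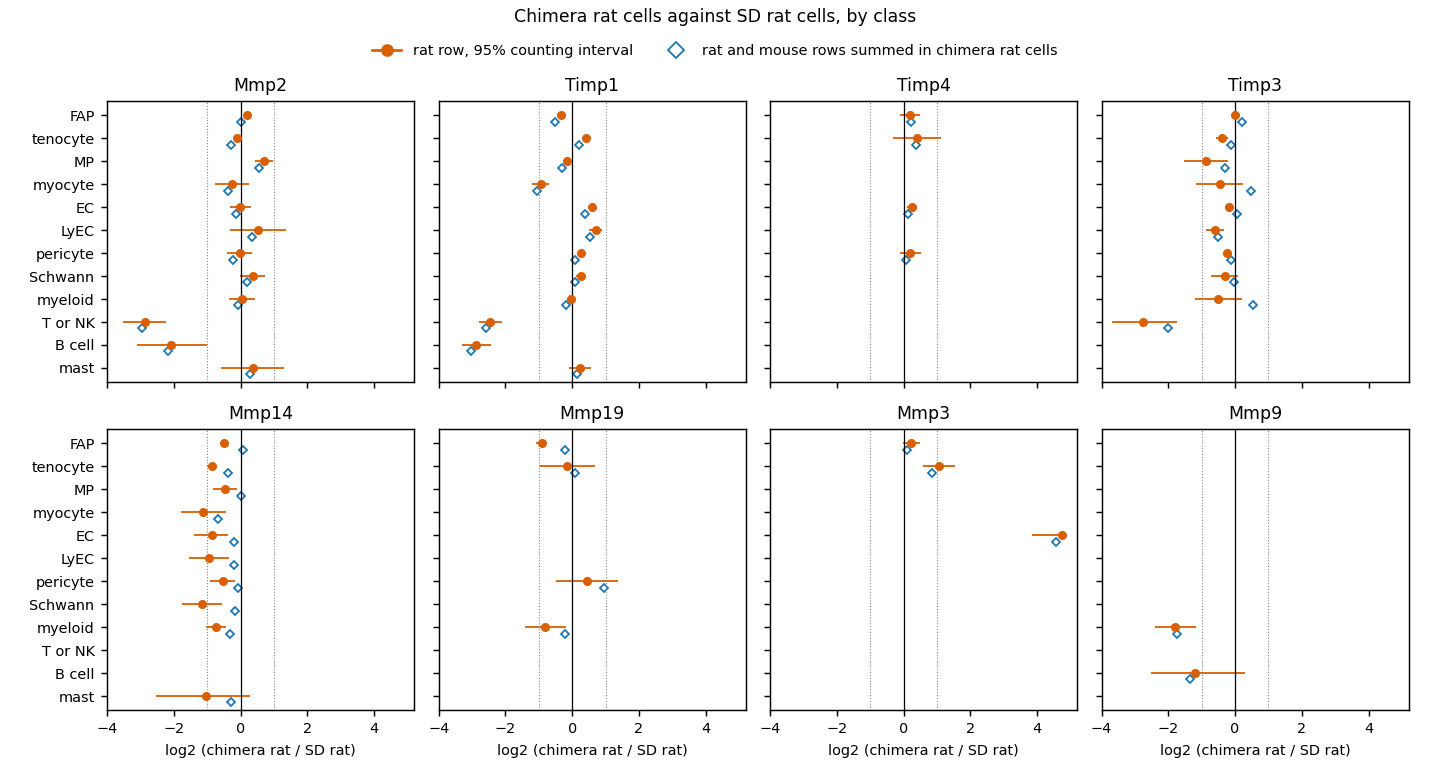
Log2 difference in level, chimera rat minus SD rat with 1 CPM added, for each gene and class with at least 20 UMIs. Filled circles are rat rows, with 95% intervals from counting error as bars. Open diamonds count rat and mouse rows in chimera rat cells, and dotted lines mark 2-fold. On rat rows Mmp14 lies below 0 in each class drawn, and Timp1 lies at 0.58 in EC-like and -0.95 in myocyte-like cells. The open diamonds of Mmp14 lie above 0 in FAP-like (0.07) and MP-like cells (0.02).

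The 2 higher values were both Mmp3, in tenocyte-like cells (1.05, interval 0.57 to 1.54), where 1.95% of genes were past 2-fold higher, and in EC-like cells (4.56% of genes). The tenocyte-like value was 0.75 without the top cell of each group and 0.86 with mouse-row UMIs added, neither past 2-fold. In EC-like cells no Mmp3 UMI was found in the SD rat, so the level was at least 38.7-fold higher against a floor of 3 UMIs, and this came from the 1 cell named above. Mmp14 was lower in myocyte-like (-1.12), Schwann-like (-1.15) and mast-like cells (-1.04), where 6.71%, 4.46% and 7.45% of genes were past 2-fold lower. The mast-like value rests on 6 and 20 UMIs (interval -2.54 to 0.28). With the mouse-row UMIs of chimera rat cells added, the 3 values were -0.67, -0.17 and -0.29, none past 2-fold. Mmp9 was lower in myeloid-like cells (-1.79, interval -2.40 to -1.16), with 2.72% of genes lower. The SD rat myeloid-like class holds the neutrophil-led cluster, 19 of its 48 Mmp9 UMIs came from 1 cell, and the part of cell makeup in this value was not tested.

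The other 6 lower values lay in lymphocytes, where many genes differed. The T or NK cell-like class was a cluster of 96 cells with Ccl5, Gzmm and Nkg7 among its top genes in SD rat and one of 519 cells with Cd3d, Cd3g and Lef1 in chimera rat, and the part of this makeup in the values was not tested. In T or NK cell-like cells Mmp2 (-2.87), Timp1 (-2.46) and Timp3 (-2.76) were lower, against 16.1% of genes lower. In B cell-like cells Mmp2 (-2.09), Mmp9 (-1.21) and Timp1 (-2.87) were lower, against 12.6%. The Mmp9 value there rests on 18 chimera rat and 6 SD rat UMIs (interval -2.52 to 0.30). Beside these, 9 of 9 matrix substrate genes such as collagens were also lower in T or NK cell-like cells (median -3.48) and in B cell-like cells (median -2.62). In the SD rat 80 of 138 Timp1 UMIs of T or NK cell-like cells and 65 of 89 of B cell-like cells lay in 1 cell each, and without the top cell of each group the differences were -1.33 and -1.17. Whether connective-tissue RNA in these barcodes set the values was not tested. Without both lymphocyte classes 4 lower values remained.

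In chimera rat cells, part of the reads of a rat gene can be counted on the row of the mouse gene, which the rat-only reference of the SD rat does not offer. How much of the mouse-row signal was free RNA of mouse cells was not tested. The share of a gene's UMIs on its mouse row in chimera rat cells was 46.5% for Mmp19 (43.5 to 49.6%, exact binomial), 40.1% for Mmp14 and 24.7% for Timp3. It was 12.5% for Mmp9, 8.56% for Timp4, 1.28% for Mmp3, 0.181% for Mmp2 and 0.0474% for Timp1. Over 11861 gene pairs the median share was 4.46%, and 13.2% of pairs were over 20%.

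The mouse-row UMIs of chimera rat cells were then added back. On rat rows alone, with both lymphocyte classes left out, Mmp14 was below 0 in 10 of 10 classes, with a median log2 difference of -0.86. With both rows it was below 0 in 8 of 10, with a median of -0.20 and a range of -0.67 to 0.07. Timp3 was below 0 in 9 of 9 classes (median -0.38) and, with both rows, in 5 of 9 (median -0.02). Mmp19 moved from a median of -0.48 to -0.05 over 4 classes. Single values did not all come closer to 0: Mmp19 in pericyte-like cells went from 0.43 to 0.95 and Timp3 in FAP-like cells from -0.02 to 0.22, and Timp3 changed sign in myocyte-like (-0.46 to 0.49) and myeloid-like cells (-0.52 to 0.53). For Mmp2 and Timp1, with hardly any mouse-row UMIs, the rat-row medians over 10 classes were 0.11 and 0.24. With both rows they were -0.03 and 0.08, since the mouse-row UMIs of all genes then also enter the total. For Mmp14, Mmp19 and Timp3 a lower level in the chimera and the use of a combined reference cannot be told apart on rat rows.

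**Figure D4:**
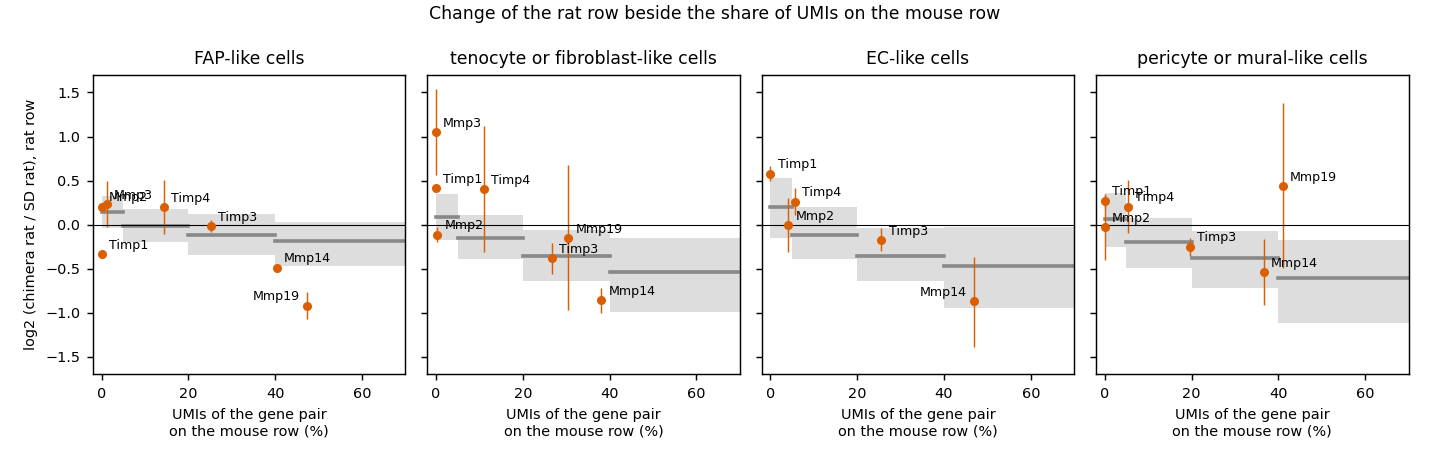
Log2 difference in rat-row level, chimera rat minus SD rat, against the share of a gene pair's UMIs on the mouse row (axis to 70%), in FAP-like, tenocyte-like, EC-like and pericyte-like cells; grey marks give the median and quartiles of all gene pairs by bin (the last bin runs to 100%) and points the genes described here, with Mmp3 left out of the EC-like panel. In FAP-like cells the bin median goes from 0.15 below 5% to -0.19 above 40%, and Mmp14 and Mmp19 lie to the right and below 0.

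The same order was seen over all gene pairs. In FAP-like cells the median rat-row difference was 0.15 for pairs with under 5% on the mouse row and -0.19 for pairs over 40%, of which 71.6% were below 0. In EC-like cells these medians were 0.20 and -0.47, and in pericyte-like cells 0.06 and -0.60. Mmp14 at -0.49 and Mmp19 at -0.92 in FAP-like cells lie at or below the lower quartile of the last bin (-0.47). With both rows counted, the medians over 40% were 0.41 in FAP-like, 0.33 in EC-like and 0.22 in pericyte-like cells, and in FAP-like cells Mmp14 was at 0.07 and Mmp19 at -0.21.

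Other genes of the protease network were counted from lists taken by pathway. In FAP-like cells 0 of 9 ADAMTS proteases, 0 of 8 ADAM sheddases, 0 of 9 genes that activate pro-enzymes, 0 of 10 other inhibitors and 0 of 9 substrates passed 2-fold in either direction, where 0.895% of genes were higher and 1.39% lower. Of 10 other MMPs 1 was lower, the collagenase Mmp13, with 59 UMIs in SD rat and 2 in chimera rat (-1.29, interval -1.41 to -1.004). Of 8 genes known to respond to tissue dissociation, the immediate early genes Egr1 and Ier2 were each higher by 1.04 on the log2 scale, and the median of the list was 0.58. Timp1 was at -0.34 in the same cells, or -0.52 with both rows, and a link to this list was not tested. In tenocyte-like cells Ier2 (1.17) and the sheddase Adam33 (1.16, from 10 and 32 UMIs) were higher. Among pericyte-like cells the MMP substrates Col1a1 (-1.67), Col1a2 (-1.11) and Col3a1 (-1.002) were lower, where 5.02% of genes were, while the enzymes and inhibitors there stayed within 2-fold. The SD rat class is 1 cluster of 389 cells led by Rgs5 and Vtn, whereas the chimera rat class holds 159 cells with Acta2 and Myh11 beside 256 of that kind, and the part of this makeup in the pericyte-like values, those of Timp3 included, was not tested.

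Mouse cells were last compared with the rat cells of the same chimera, which share animal, dissociation and library but differ in species, in gene rows and in origin from iPSCs, and these cannot be told apart. Of the values with at least 20 UMIs over both groups, 36 in number, 9 were past 2-fold higher in mouse cells and 16 past 2-fold lower, where 17.8% and 21.4% of the values of all gene pairs were. With UMIs of both rows counted in both populations, 9 were higher and 13 lower, of which 8 and 11 were also so on own rows. Among all gene pairs in FAP-like cells 20.0% were higher and 14.8% lower, and in EC-like cells 17.4% and 18.3%.

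Timp1 was lower in most mouse classes. The log2 difference (mouse minus chimera rat, 1 CPM added) was -2.82 in FAP-like cells and -3.62 without the top cell of each class, -4.88 in EC-like, -5.51 in Schwann-like (from 3 mouse UMIs) and -1.94 in myeloid-like cells, whose makeup differs between the species. In tenocyte-like cells it was 0.30, and -0.37 without the top cell. Among mouse cells 12.3% of Timp1 UMIs lay on the rat row. The share was 62.6% in EC-like, 96.4% in T or NK cell-like (27 rat-row UMIs) and 100% in B cell-like cells (20 rat-row UMIs). With both rows counted the FAP-like and EC-like differences were -2.60 and -3.38. In T or NK cell-like cells the difference was -4.09 on own rows and -0.07 with both, from 1 mouse-row UMI. Mouse B cell-like and myocyte-like cells had 0 mouse-row UMIs, which put the level at least 18.01-fold and 1.06-fold lower, and with both rows the differences were -1.27 and, with the direction turned, 1.88. Thinned to 1000 UMIs, 0.595% of mouse EC-like cells had a Timp1 UMI on the mouse row, against 22.2% of chimera rat EC-like cells. The rat venous-type cluster and its mouse counterpart each had the highest Timp1 of their population's EC-like clusters, at 1327 and 134 CPM.

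Timp3 was higher in mouse cells in 5 of the 6 classes compared. The difference was 1.58 in FAP-like, 1.49 in tenocyte-like, 1.41 in EC-like and 1.89 in Schwann-like cells, where 20.0%, 16.9%, 17.4% and 13.6% of gene pairs were past 2-fold higher. With UMIs of both rows counted in both populations it was 1.33, 1.22, 1.13 and 1.52, all still past 2-fold. T or NK cell-like cells gave 1.49 from 20 UMIs in all, and 0.86 with both rows, while myeloid-like cells gave -0.94, from 1 mouse and 27 rat UMIs. Timp4 in EC-like cells was level between species (0.03, interval -0.10 to 0.16), and Mmp2 in FAP-like cells differed by -0.15, or 0.01 with both rows.

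**Figure D5:**
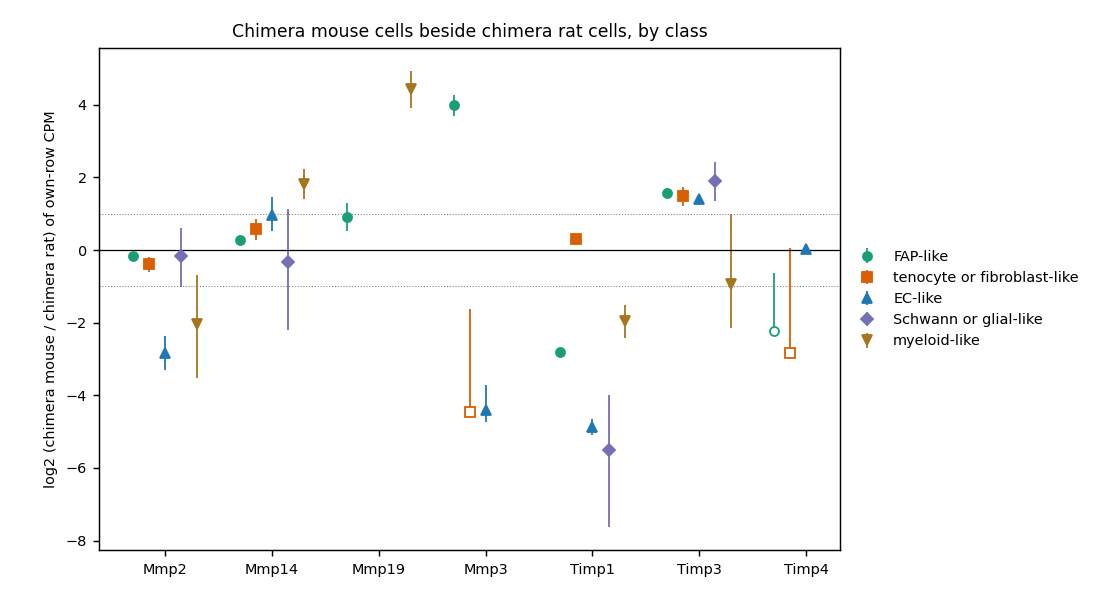
Log2 difference in level on own rows, chimera mouse minus chimera rat cells of the same class and library, for each gene. Bars are intervals from counting error, and open marks have 0 UMIs in mouse or rat cells. The solid line at 0 marks equal levels, and the lines above and below it mark 2-fold. Timp1 of FAP-like and EC-like cells lies far below the solid line (-2.82 and -4.88). Timp3 of the same classes lies above it (1.58 and 1.41) and Timp4 of EC-like cells on it (0.03).

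The enzymes moved less evenly between classes, and several of these values depend on the rows counted. Mmp14 in FAP-like cells was 0.27 on own rows and -0.31 with both, so its direction is not fixed. In myeloid-like cells, where the makeup of the class differs as given above and 15.4% of gene pairs were higher, Mmp14 was higher in mouse (1.83, and 1.37 with both rows), while in EC-like cells it was 0.98 and 0.41. Mmp19 was higher in mouse myeloid-like cells (4.42, and 4.10 without the top cell of each class) and stayed past 2-fold with both rows (3.80), whereas in FAP-like cells it was 0.92 and 0.21. For Mmp3 the FAP-like difference was 3.98, and 3.70 without the top cells. In tenocyte-like cells no Mmp3 UMI was found in 40 mouse cells, so the mouse level was at least 4.26-fold lower against a floor of 3 UMIs. That floor covers counting error only, not how few cells held the gene. Without its top cell the rat tenocyte-like level was 14.5 CPM instead of 21.2. The EC-like value of -4.41 came from the 1 rat cell named above. Mmp2 was lower in mouse EC-like cells (-2.84, and -1.52 with both rows), of whose Mmp2 UMIs 62.6% lay on the rat row.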

How the data were processed

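Cells of 1 chimera and 1 SD rat muscle preparation were profiled with 10x 3′ chemistry. For each barcode the deposited tables give UMI counts of every gene, not normalized, as Cell Ranger 7.1.0 wrote them for the authors, on mRatBN7.2 for the SD rat and on a combined mRatBN7.2 and GRCm39 reference for the chimera, with barcodes already selected as cells.

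Barcodes with at least 500 UMIs, at least 200 genes and at most 20% mitochondrial UMIs were kept, and doublets predicted by Scrublet (444 and 164) were removed. Each population was clustered alone (2000 variable genes without the 9 members, 30 components, Leiden resolution 1; scanpy 1.11.5, leidenalg 0.10.2). Clusters were named where at least 3 markers were raised, by a rule set after the clusters were seen. The 9 genes and the lists were chosen with earlier results of these data known. UMIs were summed per class and given as CPM of own-species UMIs. Ratios had 1 CPM added, needed 20 UMIs over both groups, and were counted past 2-fold, since 1 library per group allows no test. Poisson and binomial intervals are exact at 95% (scipy 1.17.1). Floors are 3 counts. On simulated data, 92.5% of 4-fold changes set among 13690 genes of FAP-like cells came out past 2-fold. These data were Poisson counts of class sums, without differences between single cells, in cell makeup or in the reference.

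All 9 members are named, with, for each, the gene most like it and the genes of the pathway lists past 2-fold in FAP-, tenocyte-, EC- or pericyte-like cells; Mmp3, Mmp9 and Timp2 had no gene computed as most like them. Alternatives covered species thresholds, doublets, depth, resolution, marker gating, scaling and single cells. Promoter sequences came from RefSeq on GRCr8.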

Additional observations from a re-analysis of the deposited data

Results flagged for a closer look

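Mmp3 differed in opposite directions between mouse and rat cells of the chimera by class. On the log2 scale mouse minus rat was 3.98 in FAP-like cells, -4.47 in tenocyte-like cells and -4.41 in EC-like cells. The mouse tenocyte-like cells had 0 UMIs, so -4.47 is set by the 1 CPM added. Against a floor of 3 UMIs, which covers counting error only, the mouse level was at least 4.26-fold lower. The difference between classes was not tested. Of the mouse FAP-like UMIs 98 of 202 lay in 1 cell, and of the rat EC-like UMIs 95 of 100.

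The mouse Timp2 row, which no comparison between rat cells uses because no rat row is named Timp2, held 699 UMIs in chimera rat cells, 481 of them in FAP-like and 113 in tenocyte-like cells. These are the 2 classes in which mouse cells had their highest Timp2.

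The 1653 barcodes with both species, which entered no comparison, held 14827 UMIs of the 9 genes. Timp1 gave 5410 of them on its rat row and 320 on its mouse row, and Timp3 2164 and 3130.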

How the results depend on the processing

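Some counts moved with the processing, and the cause was not tested. The 2 values past 2-fold higher in chimera rat than in SD rat cells became 1 with 10 CPM added. Without the cell with the most UMIs of the gene in each class, 1 value was past 2-fold higher, and it was neither of these 2. It was Mmp2 in mast-like cells, at 1.26 against 0.36 with all cells. Mmp3 in tenocyte-like cells was then at 0.75, and Mmp3 in EC-like cells had too few UMIs for a ratio. The 10 lower values became 16 of 40 with species thresholds of 90% and 10%, which left no EC-like or LyEC-like class in chimera rat cells, 3 of 45 with each barcode gated by its own markers, 6 with 10 CPM added, 8 of 61 with mouse-row UMIs added, which brings more values over 20 UMIs, 3 of 41 where 100 UMIs were required and fewer values were compared, and 4 of 51 without T or NK cell-like and B cell-like cells, a choice made after the data were seen. The 16 values lower in mouse than in chimera rat cells became 8 of 23 with thresholds of 90% and 10%. The 2 SD rat genes with a leading class 2-fold over the next became 4 with doublets kept, with barcodes gated by markers and with equal weight per cell. Reversed values were Timp1 in T or NK cell-like cells of chimera rat against SD rat, from -2.46 to 0.88 with doublets kept, and Timp4 in FAP-like cells of mouse against rat, from -2.24 to 0.16 both with thresholds of 90% and 10% and with at least 1000 UMIs. With UMIs of both rows counted in both populations, also chosen after the data were seen, Timp1 in myocyte-like cells of mouse against rat went from -5.15 to 1.88 and Mmp2 from -3.36 to 0.14, both with 0 mouse-row UMIs. No paired analysis was possible because each group has 1 library, and for the same reason no library could be left out.

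Depth limits the small classes: mouse Schwann-like cells numbered 25 and myocyte-like cells 29, where 3 UMIs of a gene in the myocyte-like class are 32.6 CPM.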
